A study of Mus musculus with 4 samples.

Results

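Esophageal tissue was set against serum of L2-IL-1β mice at 28 weeks of age, using 2 of the 4 microarrays of the study and all 1265 mouse microRNA (miRNA) probes that each array carried. The L2-IL-1β mouse is a transgenic line in which human interleukin-1β is expressed in the esophagus from a viral promoter active in squamous epithelium, and both samples carried the disease label of Barrett's esophagus, the replacement of squamous by columnar epithelium. The mice were kept under specific pathogen-free conditions, and no mice without the transgene were analysed here, so every value below comes from transgenic animals. How many mice were pooled for an array, if any, is not stated in the sources used here. With 1 array for esophagus and 1 for serum there were no replicates, no test was possible and no p-value is given. Tissue RNA was extracted with a mirVana kit and serum RNA with an miRNeasy Serum/Plasma kit, per the labels, so that the effect of the kit and that of the sample type cannot be told apart. The same pair of sample types at 46 weeks, again 1 array each, is used only to show which differences were also present in other samples.

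A miRNA is a short RNA cut from the arms of a hairpin precursor, and the arm of origin is written as 5p or 3p. It guides repression of messenger RNAs mainly through its seed, bases 2 to 8 of the mature strand. Many miRNAs are made in 1 or a few cell types and serve as markers of them, and others circulate in serum inside vesicles, in lipoproteins or bound to protein, where they can come from blood cells, from the liver and from other organs. The esophagus of the mouse is lined by stratified squamous epithelium and, unlike many hollow organs, has striated muscle along much of its wall.

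The mature sequences below belong to the miRNAs on which the comparison turned, with the seed in capitals, 5′ to 3′. They were taken from RefSeq on build GRCm38.p6, in which 1024 of the 1265 probe names had an entry. The first group holds miRNAs higher in esophagus: the squamous pair miR-203-3p (chr12:112130927-112130948, plus strand) and miR-205-5p (chr1:193507503-193507524, minus strand), the striated muscle miRNA miR-206-3p (chr1:20679055-20679076, plus strand, within the span of Lincmd1), and the miR-200 family, whose members miR-141-3p and miR-200c-3p lie together on chromosome 6 and miR-200a-3p, miR-200b-3p and miR-429-3p together on chromosome 4. Members of this family carry either of 2 seeds, which differ at a single base, and all 5 members are shown for that reason.
miR-203-3p: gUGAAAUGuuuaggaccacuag
miR-205-5p: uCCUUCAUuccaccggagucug
miR-206-3p: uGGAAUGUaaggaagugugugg
miR-141-3p: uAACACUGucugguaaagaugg
miR-200a-3p: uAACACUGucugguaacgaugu
miR-200b-3p: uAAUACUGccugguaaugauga
miR-200c-3p: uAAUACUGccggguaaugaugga
miR-429-3p: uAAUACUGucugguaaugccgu

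The second group holds miRNAs higher in serum. The erythroid miR-451a (chr11:78073186-78073207, plus strand) is shown with miR-144-3p, which is cut from the same primary transcript and behaved differently. miR-25-3p (chr5:138165332-138165353, minus strand, within the span of Mcm7) and miR-92a-3p share 1 seed although they come from separate clusters, and miR-15b-5p (chr3:69009775-69009796, plus strand, within the span of Smc4) and miR-16-5p share another. For the host genes named here and below, position within the gene's span was looked up and strand was not checked.
miR-451a: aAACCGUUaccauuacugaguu
miR-144-3p: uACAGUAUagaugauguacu
miR-25-3p: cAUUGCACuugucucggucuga
miR-92a-3p: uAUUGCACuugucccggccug
miR-15b-5p: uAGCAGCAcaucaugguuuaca
miR-16-5p: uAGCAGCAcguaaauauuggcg

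Values are net signals, the median intensity of a spot minus the mean of the BLANK spots of its array, in arbitrary units. A miRNA was counted as present on an array when its spot lay above the mean plus 2 SD of the 97 spots named No Probe, a limit of 63.1 in esophagus and 51.1 in serum against BLANK means of 54.1 and 46.3. Of the 1265 probes, 573 (45.3%) passed in esophagus and 764 (60.4%) in serum. Both limits were passed by 549 (43.4%), the limit in esophagus alone by 24, the limit in serum alone by 17% and neither by 477. Just inside the limit in esophagus were miR-6409 at 63.16 and miR-28a-3p at 63.20, with miR-3113-5p at 63.14 and miR-9-5p at 63.07 just outside. In serum miR-692 and miR-6390 lay just inside at 51.18 and 51.20, and miR-470-5p and miR-1197-5p just outside at 51.13 and 51.12. Many of these miRNAs were dim: the 549 had a median net signal of 28.7 in esophagus and 39.1 in serum.

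To put both arrays on 1 scale, each was divided by that median, and the difference is given as log2 of esophagus over serum, so that a positive value means higher in esophagus. Over the 549 miRNAs the differences had a median of 0.18, an SD of 1.55 and a range of -8.29 to 6.89. A difference of at least 2-fold was found toward esophagus in 140 miRNAs and toward serum in 75. At least 4-fold, the size used for calls below, was reached by 52 miRNAs in esophagus (9.47% of the 549) and 29 in serum (5.28%). These 2 percentages are the background against which the counts within miRNA families are to be read. The error known for a single difference is a spot-noise SD on the log2 scale, which combines the spread of No Probe spots with that of spike-in spots and leaves out all variation between mice, extractions and hybridisations. It lay between 0.092 and 0.53 over the 549 miRNAs, with a median of 0.16 and the high end at dim miRNAs, and is printed beside the leading differences. The calls depended on how the arrays were scaled: with the spike-in spots as the standard, 29 miRNAs reached 4-fold toward esophagus and 65 toward serum, and with no scaling 37 and 49. The median difference of all miRNAs was then -0.65 and -0.26, and values below are best read relative to the median of all miRNAs. With the intensity around each spot subtracted by the normexp method and an offset of 50, which draws dim miRNAs toward 0, 19 of the 52 and 12 of the 29 stayed past 4-fold. Of the list members named below, miR-205-5p, miR-206-3p, miR-143-3p, miR-145a-5p, miR-1a-3p, miR-133a-3p, miR-133b-3p, miR-146a-5p, let-7f-5p and miR-27b-3p stayed past it toward esophagus, and miR-451a, the miR-486-5p probe, miR-122-5p, miR-25-3p, miR-15b-5p and miR-16-5p toward serum.

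**Figure D1:**
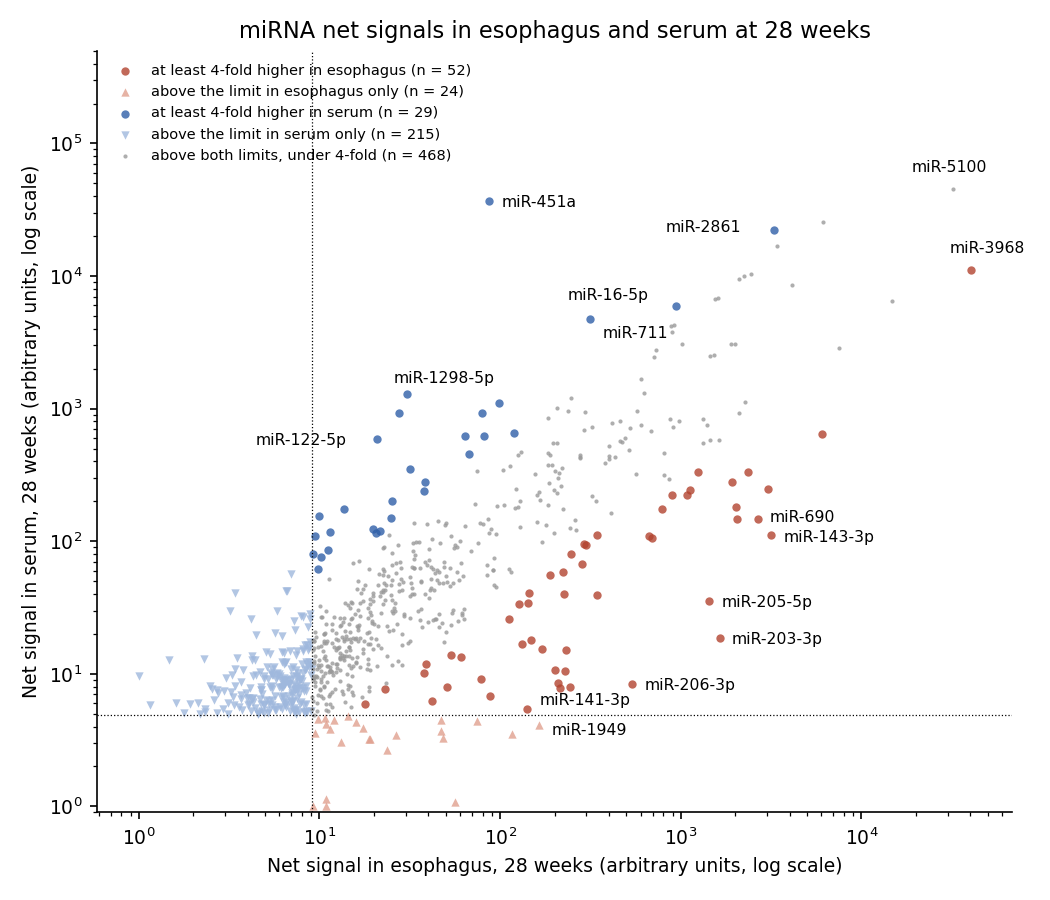
Net signal of each miRNA in esophagus (x axis) and serum (y axis) at 28 weeks, arbitrary units on log scales, 1 array each; dotted lines mark the limits and net signals under 1 are drawn at 1. Red points are the 52 miRNAs at least 4-fold higher in esophagus, blue points the 29 at least 4-fold higher in serum, triangles those above 1 limit only; miR-451a stands far above the cloud at 86.9 in esophagus and 36871 in serum.

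The plot of net signals shows a broad cloud with arms of miRNAs on either side. Across the 549 miRNAs, Pearson's correlation between log2 net signals of esophagus and of serum was 0.80, given as a description, since the points share probes, labelling and background. The arm toward esophagus ended in miR-203-3p, miR-205-5p and miR-206-3p, and the arm toward serum in miR-451a.

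The squamous miRNA miR-203-3p had the largest difference toward esophagus on net signals, but not with the normexp correction. miR-203-3p, which promotes differentiation of the upper layers of stratified epithelium, had a net signal of 1638 in esophagus and 18.7 in serum, a log2 difference of 6.89 (spot-noise SD 0.14). Its surroundings on the esophagus array were bright, at 1574 units against a spot intensity of 1692. With the normexp correction, which subtracts local background and adds an offset, the difference of miR-203-3p was 1.43 and no longer 4-fold. It was then below that of miR-143-3p (4.29), miR-690 (3.95), miR-205-5p (3.75) and miR-206-3p (3.13). How much of this drop came from the offset and how much from the bright surroundings was not tested. miR-205-5p, a marker of basal squamous cells, had 1429 in esophagus and 35.4 in serum (log2 difference 5.78, spot-noise SD 0.11). The opposite strands of both hairpins, miR-203-5p and miR-205-3p, were above the limit in esophagus only, at 26.4 and 17.5, which gave lower bounds of at least 7.30-fold and at least 4.83-fold. miR-31-5p, which is abundant in squamous carcinomas, differed less, with 28.8 in esophagus and 11.6 in serum (1.75, spot-noise SD 0.22). Of the 6 squamous probes, 3 were above both limits, 2 of these at least 4-fold toward esophagus, and their median difference was 5.78. In a sample of mixed cells, fewer cells of a type and less RNA per cell cannot be told apart.

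All 5 members of the miR-200 family, which keeps cells epithelial by repressing the transcription factors Zeb1 and Zeb2, were at least 4-fold higher in esophagus, with a median of 4.38. The log2 difference was 5.14 for miR-141-3p, 4.69 for miR-200a-3p, 4.38 for miR-200c-3p, 4.15 for miR-429-3p and 3.93 for miR-200b-3p, with spot-noise SDs between 0.16 and 0.39. Their net signals lay between 88.2 and 232.7 in esophagus and between 5.44 and 15.3 in serum, not far above the limit there. Both seed groups and both genomic clusters were represented on the same side. miR-141-3p and miR-200a-3p differ by 2 bases over the whole mature sequence, as do miR-200b-3p and miR-200c-3p, so probes within such a pair may share signal and are not independent readings. With the normexp correction and its offset of 50, which draws dim miRNAs toward 0, none of the 5 reached 4-fold. Their median was then 1.79, and miR-200b-3p and miR-429-3p were at 1.07 and 0.99. How much of this came from the offset and how much from the local background was not tested.

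The columnar and glandular list, in which miR-192-5p, miR-194-5p and miR-215-5p are typical of intestinal epithelium and miR-375-3p of gastric and endocrine cells, did not stand toward esophagus. miR-192-5p had 27.1 in esophagus and 94.2 in serum, a difference of -1.36 (spot-noise SD 0.14). miR-194-5p was nearly level with 50.1 in esophagus and 54.4 in serum (0.33), and so was miR-215-5p with 14.1 and 19.3 (-0.01). miR-375-3p was above the limit in serum only, with 7.0 in esophagus and 10.8 in serum. None of the 4 reached 4-fold, and the median of the 3 above both limits was -0.01.

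Muscle miRNAs were the other large group toward esophagus. miR-206-3p, made in skeletal muscle and its precursors, had 538 in esophagus and 8.36 in serum, a log2 difference of 6.45 (spot-noise SD 0.26). miR-133b-3p, encoded beside it on chromosome 1, had 2342 in esophagus and 332 in serum (3.26). miR-1a-3p and miR-133a-3p, made in heart and skeletal muscle, had 3020 and 1925 in esophagus against 246 and 282 in serum, giving 4.06 and 3.22. The surroundings of miR-1a-3p in esophagus read 2040 units against a spot intensity of 3074. With the normexp correction of local background and its offset of 50, the differences were 2.18 for miR-1a-3p, 3.13 for miR-206-3p and 2.73 for both miR-133 3p probes. The minor strand miR-133a-5p gave nearly the same difference as its partner (3.12, spot-noise SD 0.28), at 50.6 in esophagus and 7.93 in serum. All 5 probes of the striated muscle list above both limits were at least 4-fold higher in esophagus, with a median of 3.26. Of the other 7 in the list, miR-1a-1-5p was above the limit in esophagus only, miR-499-5p in serum only, and 5 passed neither limit, among them miR-208a-3p and miR-208b-3p, which are encoded in cardiac myosin genes. The 5p strand of the miR-208a hairpin, which the list does not hold, went the other way: miR-208a-5p had 9.96 in esophagus and 155.4 in serum (-3.52, spot-noise SD 0.31).

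In smooth muscle, miR-143-3p and miR-145a-5p mark the contractile state. miR-143-3p had 3157 in esophagus and 110.7 in serum, a difference of 5.28 (spot-noise SD 0.09), and miR-145a-5p had 2037 and 146.1 (4.25). Its related probe miR-145b followed at 132 in esophagus and 16.8 in serum (3.42). The other strand of the miR-143 hairpin did not share this pattern: miR-143-5p read 275 in esophagus and 434 in serum, a difference of -0.21. The minor strand miR-145a-3p was above the limit in esophagus only, at least 6.50-fold higher there.

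**Figure D2:**
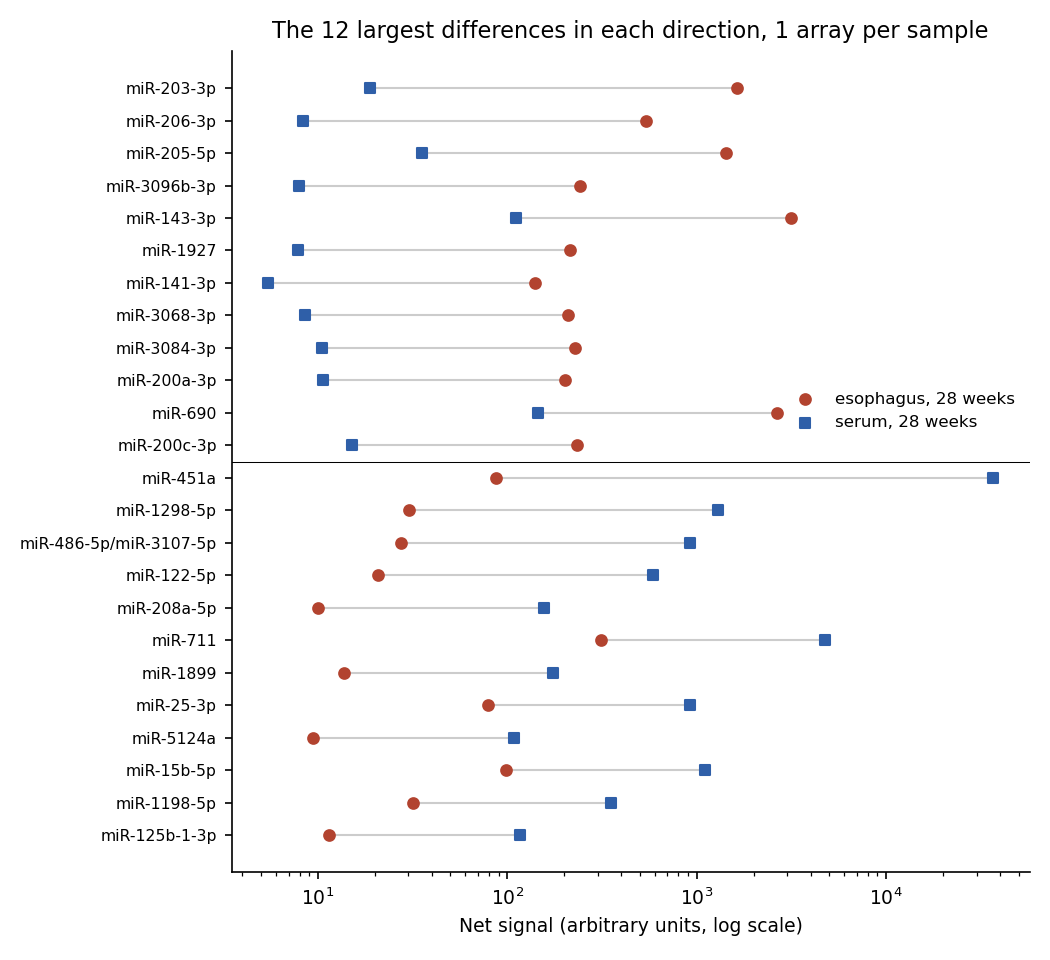
Net signal (x axis, arbitrary units, log scale) of the 12 miRNAs with the largest difference toward esophagus (upper block) and toward serum (lower block), red circles for esophagus and blue squares for serum, 1 array each at 28 weeks. The upper block runs from miR-203-3p (1638 in esophagus, 18.7 in serum) to miR-200c-3p (233 and 15.2), and the lower from miR-451a (86.9 and 36871) to miR-125b-1-3p (11.4 and 117).

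The plot of the 12 largest differences per direction shows 5 miRNAs toward esophagus that belong to no list and for which no cell type is named here. miR-690 was the brightest of them in esophagus, with 2661 in esophagus and 145.9 in serum (4.63, spot-noise SD 0.09). miR-3096b-3p had 243 in esophagus and 7.91 in serum (5.38), miR-1927 had 214.3 and 7.82 (5.22), miR-3068-3p had 209 and 8.54 (5.06) and miR-3084-3p had 229 and 10.5 (4.88). Their serum readings were close to the limit, so spot noise was larger for these 4, at 0.22 to 0.28. With the normexp correction and its offset of 50, miR-3096b-3p was just short of 4-fold at 1.98. Under that correction miR-203-3p, miR-141-3p, miR-200a-3p and miR-200c-3p were also short of it, and the other 7 of the 12 stayed past it.

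miRNAs induced through interleukin-1 and NF-kB signalling were also toward esophagus, in an organ where the transgene drives interleukin-1β. miR-146a-5p, which dampens this pathway through its adaptor proteins, had 697 in esophagus and 105 in serum, a difference of 3.17 (spot-noise SD 0.09). Its near-identical relative miR-146b-5p, 2 bases apart, had 226 and 39.9 (2.95). miR-155-5p, a miRNA of activated leukocytes, was dimmer, with 37.8 in esophagus and 10.2 in serum (2.33, spot-noise SD 0.24). miR-21a-5p, widely induced in inflamed tissue, had 1443 and 581 (1.76), and its minor strand passed neither limit. Of the 4 above both limits, 3 were at least 4-fold toward esophagus, with a median of 2.64. The comparison has no transgene-free esophagus beside it, so it cannot say what the transgene added.

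The leukocyte miRNAs pointed in different directions. miR-142-3p, made across hematopoietic cells, had 127 in esophagus and 33.9 in serum (2.35), while the other strand of the same hairpin, miR-142-5p, was level at 184 in esophagus and 187 in serum (0.43). miR-150-5p of mature lymphocytes was lower in esophagus, at 126.3 against 450 in serum (-1.39). miR-223-3p of neutrophils and monocytes gave 399 in esophagus and 526 in serum (0.05). The list's median of 0.24 was below 0 with quantile, spike-in and no scaling, so no direction is given for it.

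Stromal and vascular miRNAs were moderately higher in esophagus. The miR-199 probes, made with miR-214 in fibroblasts and other mesenchymal cells, had differences of 2.51 for miR-199b-5p, 2.20 for miR-199a-5p and 2.05 for the probe shared by miR-199a-3p and miR-199b-3p, and miR-214-3p and miR-214-5p had 1.37 and 0.86. miR-29b-3p, which represses collagen and other matrix genes, had 891 in esophagus and 222 in serum (2.45), with miR-29c-3p and miR-29a-3p at 1.38 and 1.34. The endothelial miR-126 was alike on both strands, at 1.25 for miR-126-3p and 1.15 for miR-126-5p. These lists kept their side under every scaling tried.

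**Figure D3:**
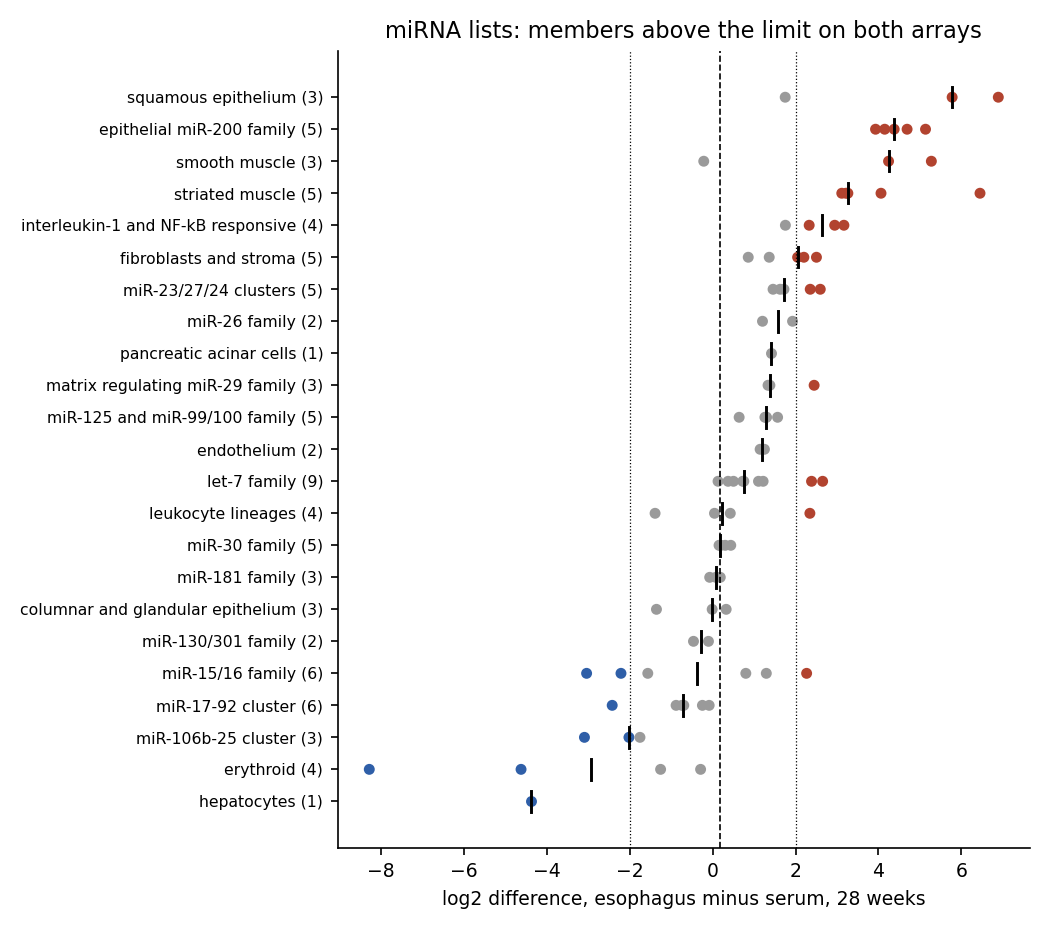
Log2 difference of esophagus minus serum at 28 weeks (x axis) for the members of 23 miRNA lists above both limits (number in parentheses), 1 point per probe, with the list's median as a black bar; the dashed line is the median of all 549 miRNAs (0.18) and the dotted lines mark 4-fold. Squamous, miR-200 and muscle lists lie to the right, erythroid and hepatocyte lists to the left.

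The plot of the miRNA lists orders 23 of the 24 lists by their median. For the remaining list, the neuronal miR-124 and miR-9, none of the 4 probes passed either limit, with net signals of at most 8.99 in esophagus and 4.50 in serum. Of the pancreatic acinar miRNAs, miR-216a-5p, miR-216b-5p and miR-217-5p passed neither limit, and miR-148a-3p, which many tissues make, stood at 1.42.

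Among broadly expressed families, differences were smaller. The let-7 family, regulators of developmental timing and growth, had a median of 0.75 over 9 members. With spike-in scaling its median was -0.08, where the median of all miRNAs was -0.65. let-7f-5p with 1124 in esophagus and 243 in serum (2.65) and let-7e-5p with 224 and 58.1 (2.39) were the 2 members past 4-fold, while let-7i-5p was level at 458 and 569 (0.13). let-7e-5p and let-7f-5p differ by 2 bases, and probes of this family may share signal. Both miR-27 members, miR-27b-3p at 2.60 and miR-27a-3p at 2.36, were past 4-fold, and miR-24-3p, miR-23b-3p and miR-23a-3p from the same clusters stood at 1.72, 1.63 and 1.46. The miR-125 and miR-99/100 list had a median of 1.30 and the miR-26 family 1.57, with no member past 4-fold. The miR-30 family lay within a narrow band of 0.15 to 0.44 around a median of 0.19, next to the median of all miRNAs, and the miR-181 family ran from -0.07 to 0.18. With quantile, spike-in and no scaling the medians of the miR-30 and miR-181 families were below 0, and so was the median of all miRNAs.

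Toward serum, the erythroid miRNAs gave the largest difference of the whole comparison. miR-451a, which is matured by Argonaute 2 without Dicer and accumulates in red cells, had 86.9 in esophagus and 36871 in serum, a log2 difference of -8.29 (spot-noise SD 0.10). The probe shared by miR-486-5p and miR-3107-5p, of which miR-486-5p is also abundant in red cells, had 27.5 in esophagus and 923 in serum (-4.62, spot-noise SD 0.14). miR-144-3p, encoded just before miR-451a, was nearly level, with 80.9 in esophagus and 135 in serum (-0.29). The other strand of that hairpin, miR-144-5p, was above the limit in serum only, with 2.30 in esophagus and 12.8 in serum. miR-486-3p was at 113 in esophagus and 368 in serum (-1.26). Of the 5 erythroid probes 4 were above both limits, with a median of -2.94, and 2 of these were past 4-fold toward serum. The summed net signal of the list, nearly all of it from miR-451a in serum, was 311 in esophagus and 38309 in serum, and without miR-451a 224 and 1439. All 5 probes were above the limit in serum, and all but miR-144-5p were above it in esophagus. miR-16-5p, miR-25-3p and miR-92a-3p, given below, are also known from red cells, and the part of red cells in their values was not tested.

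miR-122-5p, made almost only by hepatocytes, had 20.8 in esophagus and 591 in serum, a difference of -4.38 (spot-noise SD 0.17). Its minor strand miR-122-3p was above the limit in serum only, at 12.7. This hepatocyte miRNA had the largest disagreement with 46 weeks of all named miRNAs, given below.

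The miR-15/16 family, which restrains the cell cycle, was split between the sample types. miR-16-5p had 940 in esophagus and 5924 in serum (-2.21), miR-15b-5p had 98.3 and 1101 (-3.04) and miR-15a-5p had 237 and 954 (-1.56). The other 3 members stood on the esophagus side: miR-497-5p had 143.97 in esophagus and 40.7 in serum (2.27), miR-322-5p had 31.6 and 17.5 (1.30) and miR-195a-5p had 222 and 174 (0.80). miR-195a-5p and miR-322-5p carry the same seed as miR-15a-5p, miR-15b-5p and miR-16-5p. The family's median of -0.38 describes neither set. The probe miR-16-5p reads the product of 2 loci, on chromosomes 3 and 14.

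The miR-106b-25 cluster, which lies within the span of Mcm7 and promotes cell cycle entry, was toward serum at each of its 3 major strands. miR-25-3p had 79.3 in esophagus and 921 in serum (-3.09, spot-noise SD 0.10), miR-106b-5p had 120 and 660 (-2.02) and miR-93-5p had 184 and 844 (-1.75). The minor strand miR-106b-3p was above the limit in serum only, at 42.0 and at least 3.40-fold higher there. In the related miR-17-92 cluster 1 of 6 members reached 4-fold: miR-92a-3p, with the seed of miR-25-3p, had 38.5 in esophagus and 281 in serum (-2.42). Its cluster neighbours miR-19b-3p and miR-20a-5p stood at -0.08 and -0.25, miR-17-5p at -0.74. The family of miR-130 and miR-301 was near level, with miR-130a-3p at -0.10, and miR-130b-3p above the limit in serum only.

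Other miRNAs among the 12 largest toward serum have no list here. miR-1298-5p, encoded within the span of the serotonin receptor gene Htr2c, had 30.3 in esophagus and 1296 in serum (-4.97, spot-noise SD 0.13). miR-711, within the span of Col7a1, had 314 in esophagus and 4751 in serum (-3.48, spot-noise SD 0.09), and miR-1198-5p had 31.7 and 351 (-3.03). The remaining 4 were close to the limit in esophagus, with net signals of 9.40 to 13.7 there: miR-208a-5p at -3.52, miR-1899 at -3.22, miR-5124a at -3.09 and miR-125b-1-3p at -2.91. These 4 did not stay past 4-fold with the local background subtracted and the offset of 50, where miR-5124a was at -0.84 and miR-1899 at -1.48, and the other 8 of the 12 did.

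Of the 24 miRNAs above the limit in esophagus only, the serum reading allows a lower bound of at least 4-fold for 13. The highest bounds were at least 45.4-fold for miR-1949 (net signal 164 in esophagus), at least 32.3-fold for miR-3096a-3p (117), at least 20.7-fold for miR-487b-3p (74.7) and at least 15.6-fold for miR-5117-3p (56.5). miR-96-5p, which belongs with miR-182-5p to a cluster on chromosome 6 known from sensory organs, had 48.1 (at least 13.3-fold), and miR-3069-3p had 47.2 (at least 13.1-fold). Of the miRNAs above the limit in serum only, the esophagus reading allowed a 4-fold bound for 1, miR-150-3p, with 56.4 in serum and at least 4.57-fold higher there. The next were miR-130b-3p (at least 3.43-fold), miR-106b-3p (3.40), miR-5625-5p (3.31), miR-546 (2.41) and miR-5108 (2.40). For 177 of them the bound was under 1-fold and no fold is given. This group was dim, with a median net signal of 8.01 in serum, and the limit stood 9.06 above the BLANK mean in esophagus and 4.87 in serum, so most of them would not have been readable in esophagus at the same net signal.

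A small number of probes carried much of the net signal of both arrays. The 5 brightest made up 45.6% of it in esophagus and 44.4% in serum. miR-5100 was among them in both, with 14.5% in esophagus and 13.8% in serum, while miR-3968 took 18.2% in esophagus and 3.36% in serum and miR-451a 0.0393% and 11.2%. miR-6366 and miR-5097 took 6.66% and 3.40% in esophagus against 1.95% and 0.872% in serum. miR-5126, miR-2861 and miR-3960 ran the other way, with 2.78%, 1.48% and 1.55% in esophagus and 7.70%, 6.74% and 5.06% in serum. A share of signal is not a share of molecules, because probes differ in how brightly they read. Several of the bright probes read sequences of unusual composition, which are printed for that reason, again with the seed in capitals: miR-5126 consists of G and C alone, and the G+C content of miR-2861 was 94.7%.
miR-3968: cGAAUCCCacuccagacacca
miR-5100: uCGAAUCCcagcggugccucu
miR-5126: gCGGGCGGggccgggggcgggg
miR-2861: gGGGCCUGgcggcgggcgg

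miR-3968 and miR-5100 share a run of 9 bases, CGAAUCCCA, at or next to their 5′ ends, and no other of the 1024 matched miRNAs carried it. Their differences were not alike, at 2.30 for miR-3968 (40284 in esophagus, 11119 in serum) and -0.06 for miR-5100 (32116 in esophagus, 45492 in serum).

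Base composition differed between the classes. Median G+C content was 45.5% in the 38 matched miRNAs at least 4-fold higher in esophagus, 54.5% in the 26 at least 4-fold higher in serum and 57.1% in the 373 between. The median log2 difference was 0.75 in miRNAs of up to 40% G+C (n = 32), 0.50 from 40 to 50%, 0.15 from 50 to 60% and -0.17 above 60% (n = 154). Across these 437 miRNAs the Spearman correlation of G+C content with the difference was -0.35, and Pearson's was -0.30, given as descriptions across miRNAs that share 2 arrays. Under the alternatives tried it lay between -0.31 and -0.38, and at 46 weeks it was -0.15. The 2 extraction kits also divide the arrays, and their part in this pattern was not tested.

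**Figure D4:**
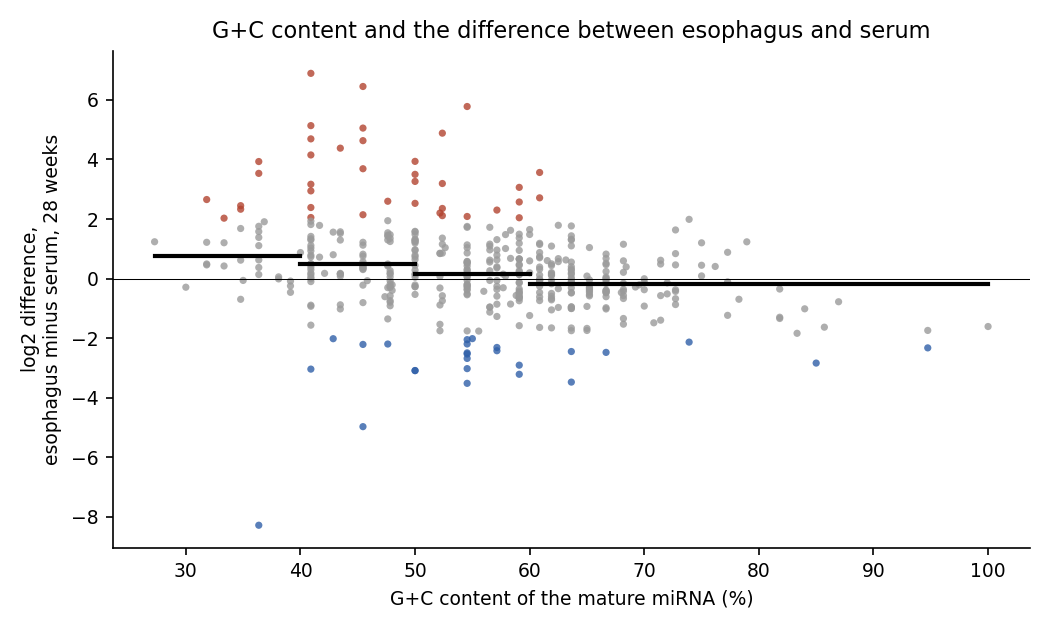
G+C content of the mature miRNA (x axis, %) and log2 difference of esophagus minus serum at 28 weeks (y axis) for 437 miRNAs above both limits, with the median of each G+C range as a black bar. Red and blue points are at least 4-fold toward esophagus and serum; the medians step down from 0.75 at up to 40% to -0.17 above 60%, while miR-451a, the lowest point, is poor in G and C at 36.4%.

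The plot of G+C content shows that the step between ranges was small beside the spread within each. More than 60% G+C was found in 2 of the 38 matched miRNAs toward esophagus and in 6 of the 26 toward serum, against 154 of all 437, so both classes held a smaller share than the miRNAs as a whole.

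Both strands of 95 hairpins were above both limits, and the 2 strands lay on the same side in 64 of them, with a median absolute distance of 0.75 on the log2 scale. In 16 hairpins at least 1 strand was past 4-fold. Both strands were past it on the same side for miR-133a, miR-199a and miR-199b, where the last 2 share their 3p probe. In 4 hairpins a strand past 4-fold stood against a partner of opposite sign: miR-143 with -0.21 for the 5p and 5.28 for the 3p strand, miR-25 with 0.66 and -3.09, miR-3067 with 0.31 and -2.13, and miR-5621 with 1.99 and -2.48. For miR-25 the 5p strand read 24.4 in esophagus and 20.97 in serum, against 79.3 and 921 for the 3p strand.

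miRNAs from 1 cluster shared a side in some clusters and not in others. Each example below holds members past 4-fold, and the share of clusters on 1 side was not counted. On chromosome 4, miR-200b-3p, miR-200a-3p and miR-429-3p were all past 4-fold toward esophagus, and on chromosome 6 so were miR-141-3p and miR-200c-3p. On chromosome 17, let-7e-5p (2.39) and miR-125a-3p (3.06) were past 4-fold, while miR-99b-5p was at 1.30 and miR-125a-5p, the other strand of the same hairpin, at 0.64. On the X chromosome, miR-500-3p (-2.05) and miR-501-3p (-2.68), which share a seed, were past 4-fold toward serum, and their neighbours miR-362-5p (1.79) and miR-362-3p (1.03) lay on the other side.

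At 46 weeks, other samples of the same 2 kinds gave a similar ordering. Over the 485 miRNAs above both limits at both ages the Pearson correlation of the differences was 0.87, and 384 had the same sign. Of the 52 miRNAs at least 4-fold higher in esophagus at 28 weeks, 42 were above both limits at 46 weeks and 32 of these were at least 4-fold higher again. Of the 29 toward serum, all 29 were above both limits and 23 were again at least 4-fold. At 46 weeks 43 of 543 miRNAs were at least 4-fold toward each sample type. Since these are 1 array per age and sample type, the difference between ages was not tested.

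**Figure D5:**
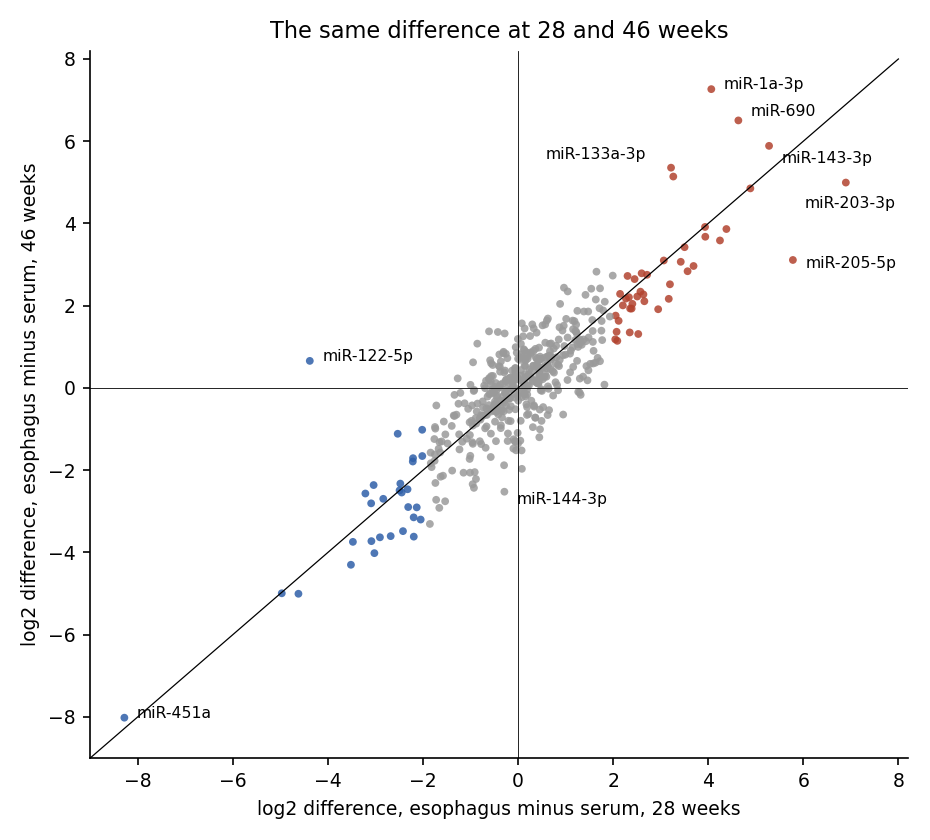
Log2 difference of esophagus minus serum at 28 weeks (x axis) and 46 weeks (y axis) for the 485 miRNAs above both limits at both ages; red and blue points were at least 4-fold toward esophagus and serum at 28 weeks, and the diagonal marks equal differences. miR-451a sits near the diagonal at -8.29 and -8.02, and miR-122-5p stands off it at -4.38 and 0.66.

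The plot of the 2 ages shows which miRNAs left the diagonal. miR-451a was at -8.29 and -8.02 at 28 and 46 weeks, miR-1298-5p at -4.97 and -5.0, miR-143-3p at 5.28 and 5.89 and miR-3084-3p at 4.88 and 4.85, each within 1 log2 unit. miR-122-5p went against its value at 28 weeks: it had 107 in esophagus and 70.0 in serum at 46 weeks (0.66), so that its esophagus signal was higher and its serum signal lower than at 28 weeks. The striated muscle miRNAs stood less far toward esophagus at 28 than at 46 weeks, with miR-1a-3p at 4.06 and 7.27, miR-133a-3p at 3.22 and 5.36, and miR-133b-3p at 3.26 and 5.14. For all 3 the serum signal was higher at 28 weeks, at 246, 282 and 332, against 23.9, 61.6 and 76.6 at 46 weeks, while esophagus signals at the 2 ages were within 1.5 times of each other. The squamous pair stood further toward esophagus at 28 weeks, at 6.89 and 5.78 for miR-203-3p and miR-205-5p, with serum signals of 18.7 and 35.4, against 4.99 and 3.11 at 46 weeks, with serum signals of 62.7 and 179. miR-690 stood at 4.63 and 6.51 at 28 and 46 weeks, and miR-144-3p at -0.29 and -2.53.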

How the data were processed

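Per the file headers, the deposited scanner output gives a median intensity for every spot and for its surroundings, in arbitrary linear units, neither background-corrected nor normalized, with readings at 3 scanner gains joined. RNA was labelled with Hy5 for Toray 3D-Gene arrays of 1 colour, per the labels' protocols. The authors' deposited table of processed intensities equalled, to within 0.0515 units, spot intensity less 54.07 in esophagus and 46.25 in serum, close to the BLANK means, with 1 factor per array that set its median to 25. Each array had 3200 spots. The spot of miR-3109-5p, marked bad in esophagus, was left out.

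Net signal was spot intensity minus the mean of 1664 BLANK spots. Each array was divided by the median over miRNAs above both limits and differences were taken on the log2 scale. A lower bound sets the brighter net signal against the higher of the lowest passing signal on the dim array and the dim miRNA's own signal, after scaling. The number of arrays limits the precision. The miRNAs named were the 12 largest differences per direction of at least 4-fold among those at or above the median net signal on 1 array or both, the 6 largest lower bounds per direction, the 5 brightest per array and the members of 24 lists. Members, lists and alternatives were chosen with earlier results of these data known. Alternatives were normexp (limma 3.58.1, R 4.3.3), other scalings, limits and background levels, and the authors' table. Python 3.11.15, numpy 2.4.6, pandas 2.3.3, scipy 1.17.1 and matplotlib 3.10.9 were used.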

Additional observations from a re-analysis of the deposited data

Results flagged for a closer look

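For 3 miRNAs of the 93 named or listed ones readable at both ages, the sign of the difference between esophagus and serum at 28 weeks was opposite to that at 46 weeks, with at least 2-fold at 1 of them. The difference between ages was not tested, because each rests on 1 array. miR-122-5p of hepatocytes had a log2 difference of -4.38 at 28 weeks and 0.66 at 46 weeks. miR-223-3p of myeloid cells stood at 0.045 and -1.28, with 399 in esophagus and 526 in serum at 28 weeks and 522 and 1306 at 46 weeks. The dim miR-181d-5p stood at 0.078 and -1.97, with 9.93 in esophagus and 12.8 in serum at 28 weeks and 9.30 and 37.4 at 46 weeks. For these last 2 the opposite sign changed with the scaling: both lay below the median of all miRNAs at 28 weeks (0.18), and with no scaling they stood at -0.40 and -0.37 at 28 weeks, while miR-122-5p stood at -4.83.

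Spots outside the miRNA probes also differed. Of the 22 probes with 1 spot among 31 named S-Probe, whose targets the files do not name, 6 gave a clear net signal in esophagus at 28 weeks with little in serum. S-Probe1014 had 4147 in esophagus and 97.7 in serum, S-Probe1018 had 1153 and 8.91, S-Probe1019 had 146.4 and 5.08, S-Probe1016 had 143.97 and 9.87, S-Probe1002 had 121 and 2.56, and S-Probe1005 had 39.2 and 4.68. At 46 weeks they read 4883, 1083, 141.6, 131, 121.7 and 31.6 in esophagus in the same order, and between 1.94 and 74.6 in serum.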

How the results depend on the processing

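All 12 miRNAs named toward esophagus and all 12 toward serum kept their sign under every alternative that gave them a value. Counts moved more. Against 52 miRNAs at least 4-fold higher in esophagus and 29 in serum, normexp correction (local background, offset 50) gave 19 and 16, scaling to the spike-in spots 29 and 65, no scaling 37 and 49, a limit from the BLANK spots 56 and 46, and the authors' deposited table had 54 in each direction. Leaving out probes whose surroundings were over 2 times the array's median, chosen after seeing the data, gave 23 and 17, since it removed many bright probes, and it left 4 and 5 of the named miRNAs. The share of probes above 1 limit only, 1.90% in esophagus and 17% in serum, became 7.27% (92) and 9.41% (119) with the BLANK limit and 7.43% (94) and 7.91% (100) in the authors' table. The offset draws dim miRNAs toward 0 by construction; other causes were not tested. Quantile scaling, subtracting the No Probe mean, a limit of 3 SD and keeping brighter probes left both counts within 1.5 times. No paired analysis was possible because each sample type had 1 array. Signal over background limits the dim miRNAs: the spot-noise SD of listed miRNAs reached 0.41 on the log2 scale.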

Other observations

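Some miRNAs past 4-fold at 28 weeks belong to no list above and were singled out after their values were seen. The miR-378 group, whose founding member is encoded in the gene of the metabolic coactivator PGC-1β, had 4 probes past 4-fold toward esophagus: miR-378b had 284 in esophagus and 67.2 in serum (log2 difference 2.53), miR-378c had 300 and 94.2 (2.11), miR-378d had 248 and 79.4 (2.09) and miR-378a-3p had 342 and 111 (2.07). These sequences are close, with 2 bases between miR-378b and miR-378c and 3 between miR-378c and miR-378d, so the 4 probes may share signal. At 46 weeks their differences were smaller, between 1.14 and 1.63. The other strand miR-378a-5p stood at 1.26 at 28 weeks, and 9.47% of all 549 miRNAs were past 4-fold toward esophagus. All 4 probes were under 4-fold with normexp and its offset of 50 (0.84 to 1.82) and with spike-in scaling (1.24 to 1.69). With no scaling only miR-378b stayed past it, at 2.08, while with the No Probe mean subtracted all 4 did. miR-34a-5p, a target of p53, had 149 in esophagus and 17.9 in serum (3.50) and stood at 3.42 at 46 weeks.

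In 2 neighbouring clusters of the imprinted Dlk1-Dio3 region on chromosome 12, 22 miRNAs with a RefSeq entry were above both limits, 14 with a positive and 8 with a negative difference. Their median was 0.57, against 0.18 over all 549 miRNAs. A single one of the 22 reached 4-fold, miR-431-3p (17.9 in esophagus and 5.90 in serum, 2.04), and the lowest was miR-665-3p (24.3 in esophagus and 111 in serum, -1.74). Over all 549 miRNAs, 9.47% reached 4-fold toward esophagus and 5.28% toward serum. The strands of the miR-3072 hairpin lay on opposite sides, with 411 in esophagus and 164 in serum for miR-3072-3p (1.77) and 296 and 949 for miR-3072-5p (-1.23). A further 26 miRNAs with an entry in these clusters were above the limit in serum only and 1, miR-381-3p, in esophagus only. Over all 1265 probes, 17% were above the limit in serum only and 1.90% in esophagus only. These cluster counts hold miR-487b-5p but not miR-487b-3p of the same hairpin, which had no RefSeq entry. miR-487b-3p was above the limit in esophagus only, with 74.7 in esophagus and 4.40 in serum. Among miRNAs toward serum outside the lists, miR-140-3p, known from cartilage, had 67.6 in esophagus and 457 in serum (-2.31), and miR-212-3p had 19.7 and 123 (-2.20), while its cluster partner miR-132-3p was above the limit in serum only, with 4.78 in esophagus and 7.06 in serum.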
